A study of Mus musculus with 19 samples.

Results

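Apolipoproteins are the protein coat of lipoprotein particles, and the absorptive cells of the small intestine load dietary fat into the largest of these particles, the chylomicrons. A chylomicron is built on a single Apob molecule, to which microsomal triglyceride transfer protein (Mttp) adds lipid in the endoplasmic reticulum. The particle then leaves for the Golgi in COPII vesicles whose coat is set in place by the GTPase Sar1b, and Apoa1, Apoa4, and the C apolipoproteins join the particle surface. Described here are 9 genes of this route, taken by symbol from the 55487 genes of the deposited files: the core assembly genes Apob, Mttp, and Sar1b; the surface apolipoproteins Apoa1, Apoa4, Apoc2, and Apoc3; and Apoe and Apoh, which are best known as products of the liver and, for Apoe, of macrophages. All 9 had enough reads to be tested.

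The RNA came from small intestinal crypts, the epithelial pits that hold stem and dividing cells, of 19 C57BL/6 mice, with 1 library per mouse. The groups were neurotensin (NT) wild-type mice fed standard chow ad libitum (Nt+/+ AL, n = 5), NT knockout mice fed ad libitum (Nt-/- AL, n = 4), wild-type mice fasted for 48 hours with water only (Nt+/+ Fast, n = 5), and knockout mice fasted for 48 hours (Nt-/- Fast, n = 5). The study describes its mice, wild-type and knockout, as also carrying the Lgr5-EGFP-IRES-CreERT2 allele, which marks the stem cells. They were 10 to 16 weeks old and of either sex, with 3 females in each group, 2 males in each Nt+/+ group, 1 male in each Nt-/- group, and 1 Nt-/- Fast mouse whose sex is not given. Fed controls were littermates of the fasted mice, and which mice shared a litter is not given in the labels. Crypts were released from the proximal part of the small intestine with EDTA and were not sorted, so other epithelial cells remain in the preparation. The knockout is constitutive, and NT is a gut hormone that promotes the uptake of dietary fat, so the comparison of genotypes asks whether its loss changes these genes in fed or in fasted crypts.

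Total counts per mouse ranged from 9059418 to 35068669 (median, 18541770), and 17875 genes were tested. Nts, the gene deleted in Nt-/- mice, was between 4.98 and 8.59 CPM (counts scaled to library size) in Nt+/+ mice and between 0.144 and 0.793 CPM in Nt-/- mice. The fasted mouse titled Nt+/+ Fast 5 carries a genotype label of NT -/-. It was grouped by its title, and its Nts level was 5.43 CPM. Within groups the mice correlated at 0.966 to 0.986 over genes, and none were duplicates. Nt+/+ AL 1 among the fed mice and Nt+/+ Fast 1 and 5 among the fasted mice were low for most of the genes described here. Calls that change without such a mouse are given with and without it.

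Apoa1, Apoc3, and Apoa4 lie next to each other on chromosome 9 (GRCm38) with no other protein-coding gene between them. Apoa1 occupies positions 46228580 to 46230466 on the plus strand, Apoc3 occupies 46232933 to 46235636 on the minus strand, and Apoa4 occupies 46240696 to 46243459 on the plus strand, which leaves 2466 and 5059 bases between neighbors. Apoc2 (19671579 to 19677941) and Apoe (19696109 to 19699188) share chromosome 7 and the minus strand, 18167 bases apart with 2 protein-coding genes between them. Apob lies alone on chromosome 12 (7977648 to 8016835, plus strand) and Mttp on chromosome 3 (138089854 to 138144968, minus strand). Sar1b (51763687 to 51791925) and Apoh (108343354 to 108414396) are far apart on the plus strand of chromosome 11. Some of these genes overlap others in the annotation. Apoa4 is overlapped on the opposite strand by Gm10680 (93 to 1393 counts per mouse) and Gm47528 (21 to 323 counts), Mttp by Gm43691 (52 to 216 counts) and the start of Trmt10a (27 to 197 counts), and Apoc2 on its own strand by Gm44805 (0 to 139 counts). Apoh, itself at 1 to 80 counts, is overlapped on the opposite strand by Prkca (1644 to 6866 counts) and on its own strand by Gm11656 (0 to 2 counts). The strand setting of the counting is not given in the sources used here, so reads shared with an overlapping gene cannot be told apart from those of Apoa4, Mttp, Apoc2, or Apoh.

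The promoters of Apoa1, Apoa4, Apoc2, and Mttp are shown because these genes rose by more than 1 on the log2 scale after fasting in both genotypes (values are given below with each gene). Each line is the 250 bases before the transcription start of the RefSeq annotation of GRCm38.p6, read 5′ to 3′ on the strand of the gene. The stretches are chr9:46228380-46228629 (plus strand), chr9:46240594-46240843 (plus strand), chr7:19677942-19678191 (minus strand), and chr3:138143419-138143668 (minus strand). The gene positions given above come from a different annotation. The stretches of Apoa1 and Apoa4 therefore run into the gene spans given there, and that of Mttp lies wholly within its span. The Mttp stretch also holds the start of Trmt10a, at 138143448 on the opposite strand. Capitals mark matches to the motifs named after the sequences.
Apoa1: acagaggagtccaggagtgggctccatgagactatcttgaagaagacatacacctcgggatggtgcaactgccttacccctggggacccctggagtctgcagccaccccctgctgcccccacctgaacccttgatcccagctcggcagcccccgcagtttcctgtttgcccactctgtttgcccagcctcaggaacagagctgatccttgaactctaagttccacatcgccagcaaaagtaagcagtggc
Apoa4: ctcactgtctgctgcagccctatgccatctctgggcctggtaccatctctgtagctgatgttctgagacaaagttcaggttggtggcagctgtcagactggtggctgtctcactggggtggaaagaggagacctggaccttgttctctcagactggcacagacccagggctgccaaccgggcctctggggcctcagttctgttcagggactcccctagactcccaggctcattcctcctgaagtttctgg
Apoc2: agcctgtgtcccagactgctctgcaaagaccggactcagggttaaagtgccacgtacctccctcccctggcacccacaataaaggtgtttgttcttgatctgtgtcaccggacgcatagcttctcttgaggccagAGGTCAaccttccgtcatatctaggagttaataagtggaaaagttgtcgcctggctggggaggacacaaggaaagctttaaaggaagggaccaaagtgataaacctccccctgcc
Mttp: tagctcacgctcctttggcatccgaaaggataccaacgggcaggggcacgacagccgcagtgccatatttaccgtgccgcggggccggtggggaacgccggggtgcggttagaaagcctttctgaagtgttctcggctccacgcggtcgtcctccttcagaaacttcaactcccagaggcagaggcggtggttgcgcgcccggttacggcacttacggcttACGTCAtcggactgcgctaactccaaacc
RefSeq windows were given for 8 of the 9 genes, and Apoc3 has none. The letters searched, on both strands, were TATAAA (the TATA box, in 13.6% of all 32851 promoter windows), AGGTCA (the core motif of nuclear receptors, 16.3%), AGGTCANAGGTCA (the same core repeated after 1 base, 0.0396%), CAAAGTCCA (an HNF4 motif, 0.475%), GGGCGG (the GC box, 35.7%), CCAAT (the CCAAT box, 37.4%), and TGACGT (the core of the cAMP response element, 7.51%). The Apoc2 window held AGGTCA at −115 from the start and again at 43 past it, and the latter is outside the stretch printed. The Mttp window held TGACGT at −29, written in reverse complement on the strand shown, and GGGCGG at 25 past the start. The Apoa1 and Apoa4 windows held none of these letters. Among the other genes, Apob had TATAAA at −60, Sar1b CCAAT at −67, Apoh AGGTCA at −215, and Apoe TATAAA at −100 and −96 in 1 of its 3 windows. A match of letters does not show that a factor binds there.

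The genes spanned a range of levels in crypts. In TPM, transcript abundance scaled to the library and corrected for gene length, Apoa1 was highest in every group, at 1161 ± 395 TPM (SD, n = 5) in Nt+/+ AL mice. Apoa4 followed at 509.8 ± 218 TPM, then Mttp at 285 ± 76.7 TPM, Apob at 237 ± 77.2 TPM, Apoc3 at 115 ± 51.8 TPM, Apoc2 at 95.5 ± 46.9 TPM, and Sar1b at 44.5 ± 6.02 TPM. Apoe, at 6.24 ± 0.928 TPM, and Apoh, at 1.62 ± 0.973 TPM, were far below the rest. In that group each gene down to Sar1b overlapped its neighbor in this order, whereas Apoe lay below every Sar1b value and Apoh below every Apoe value. The order was the same in Nt-/- AL mice, and in fasted mice Apoc2 and Apoc3 changed places with overlapping ranges. In Nt-/- Fast mice Apoa1 stood at 3844 ± 795 TPM, Apoa4 at 1879 ± 426 TPM, and Mttp at 707 ± 115 TPM, each clear of the next except for Mttp and Apob (486 ± 119 TPM), which overlapped. Together the 9 genes held 0.253% to 0.735% of all counts in fed mice and 0.649% to 1.64% in fasted mice, and Apob alone, with its long transcript, held up to 0.680% of a library.

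Fasting for 48 hours raised most of these genes in both genotypes. In Nt+/+ mice 6 of the 9 genes were higher and 1, Apoh, was lower at an adjusted P below 0.05 (quasi-likelihood F test of edgeR, Benjamini-Hochberg adjustment over all genes tested), against a background of 11.2% of all genes called higher and 10.4% called lower. Among Nt-/- mice 7 were higher and Apoh was again lower, against 12.5% and 12.6% of all genes. The median log2 fold change of the 9 genes was 0.67 in Nt+/+ mice and 1.04 in Nt-/- mice, against −0.01 and −0.02 over all genes. In bulk RNA, fewer cells of a type and less RNA per cell cannot be told apart, and this holds for every difference given here. The CPM of every mouse is plotted by gene.

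**Figure D1:**
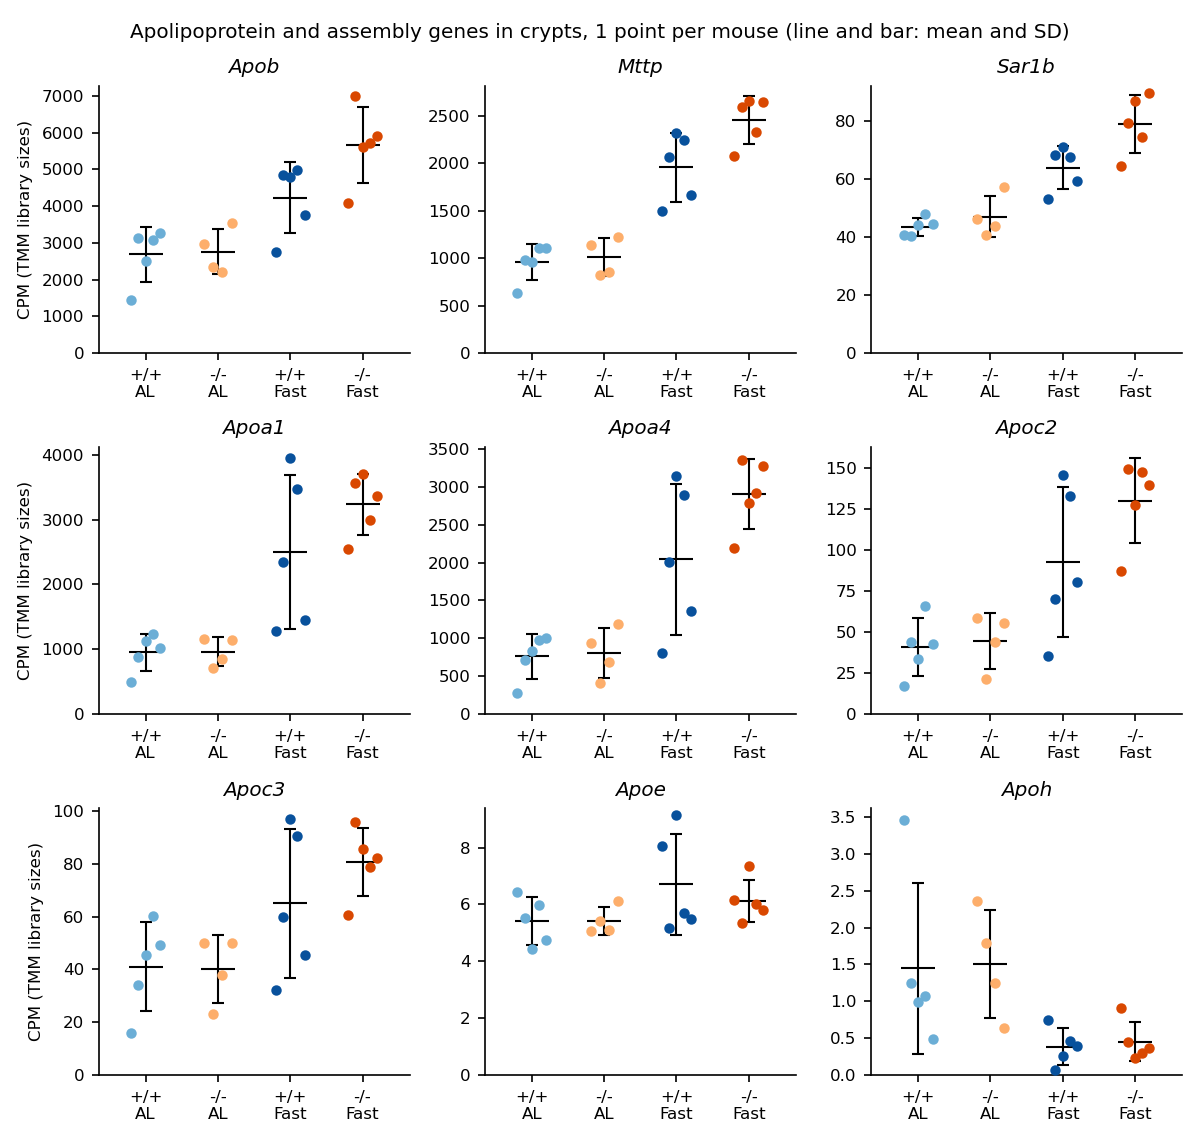
CPM (linear axes from 0) of the 9 genes in each of 19 mice, by genotype (+/+ or -/-) and diet (AL, ad libitum; Fast, 48 hours fasted); points are mice, and black lines and bars are the mean and SD. Fasted mice lie above fed mice for Apoa1, Mttp, and Sar1b in each genotype, Apoe overlaps in all groups, and Apoh is below 1 CPM in every fasted mouse.

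Apob, the structural protein of the chylomicron, rose in both genotypes. In Nt+/+ AL mice it was at 1434, 3132, 2510.1, 3084, and 3262 CPM, and in Nt+/+ Fast mice at 2759.9, 4841, 4799, 4992, and 3766 CPM. The lowest fasted mouse lay among the fed ones, so the groups overlapped. The fold change was 1.58 (95% interval, 1.16–2.15; adjusted P = 0.0323), and the call was the least stable of those in this genotype. Without Nt+/+ AL 1, in which Apob was lowest, the log2 fold change fell from 0.66 to 0.50 (adjusted P = 0.0713), and leaving out any 1 of 5 mice ended the call. Without NT, Apob rose from 2955, 2345, 2197, and 3541 CPM fed to 4085, 6991, 5607, 5726, and 5917 CPM fasted, with no overlap and a fold change of 2.05 (1.47–2.87; adjusted P = 0.00254).

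Mttp, the transfer protein that loads lipid onto Apob, had the clearest response. Its levels in Nt+/+ AL mice were 637, 984, 962, 1106, and 1106 CPM, and those in Nt+/+ Fast mice were 1497, 2070.4, 2319, 2251, and 1667 CPM. Every fasted mouse was above every fed mouse, and the fold change was 2.04 (1.62–2.58; adjusted P = 0.000147). Mttp was at 1137, 819, 856, and 1222 CPM in Nt-/- AL mice and at 2074, 2593, 2658, 2328, and 2645 CPM in Nt-/- Fast mice, again without overlap. The fold change there was 2.44 (1.90–3.13; adjusted P = 2.9e-05).

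Sar1b, the GTPase of COPII vesicles whose loss in people causes chylomicron retention, rose by less but with little spread. It was at 40.8, 40.5, 44.0, 47.8, and 44.7 CPM in Nt+/+ AL mice and at 53.2, 68.2, 71.2, 67.5, and 59.3 CPM in Nt+/+ Fast mice. The groups did not overlap, and the fold change was 1.47 (1.26–1.70; adjusted P = 0.00074). Nt-/- mice went from 46.3, 40.8, 44.0, and 57.2 CPM fed to 64.6, 79.2, 86.9, 74.5, and 89.6 CPM fasted, a fold change of 1.68 (1.43–1.97; adjusted P = 6.78e-05). Its close paralog Sar1a, with which RSEM could divide reads, had a log2 fold change of −0.04 ± 0.07 (SE) in Nt+/+ and −0.06 ± 0.08 in Nt-/- mice (adjusted P = 0.770 and 0.593). Sar1a is named for its likeness to Sar1b, not for its values.

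Apoa1, the main protein of high-density lipoprotein and a surface protein of new chylomicrons, was at 488, 885, 1129, 1237, and 1015 CPM in Nt+/+ AL mice. In Nt+/+ Fast mice it was at 1278, 2339, 3946, 3465, and 1445 CPM, so all fasted mice were above all fed mice, with a wide spread among themselves. The fold change was 2.62 (1.74–3.95; adjusted P = 0.00159). Without NT, levels of 1150.5, 703, 843, and 1139.6 CPM fed and 2546, 3565, 3708, 2995, and 3359.7 CPM fasted gave a fold change of 3.37 (2.16–5.28; adjusted P = 0.000387).

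Apoa4, an apolipoprotein made in the gut during fat absorption, behaved like its neighbor Apoa1. It was at 278, 719, 829, 978, and 1004 CPM in Nt+/+ AL mice and at 805, 2011, 3146, 2887, and 1357 CPM in Nt+/+ Fast mice. Nt+/+ Fast 1 lay within the fed range, and the fold change was 2.68 (1.61–4.47; adjusted P = 0.00685). For Nt-/- mice the fed values of 939, 416, 682, and 1191 CPM were all below the fasted values of 2187, 3349, 2789, 2925, and 3281 CPM. The fold change of 3.60 (2.05–6.31; adjusted P = 0.00168) was the highest point estimate of the 9 genes.

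Apoc2 activates lipoprotein lipase, the enzyme that empties chylomicrons of triglyceride, and Apoc3 inhibits that emptying. Apoc2 was at 17.1, 43.8, 33.6, 65.9, and 42.6 CPM in Nt+/+ AL mice and at 35.1, 69.9, 145, 133, and 80.5 CPM in Nt+/+ Fast mice, with overlap at the lowest fasted mouse. Its fold change was 2.28 (1.38–3.80; adjusted P = 0.0191). Apoc2 in Nt-/- mice went from 58.6, 21.1, 43.7, and 55.3 CPM to 87.0, 149.6, 127, 148, and 139.6 CPM without overlap, a fold change of 2.90 (1.67–5.03; adjusted P = 0.00556). In Nt+/+ mice the call was lost without Nt+/+ Fast 3 or without Nt+/+ Fast 4 (adjusted P = 0.0623 and 0.0593).

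Apoc3 was at 15.9, 34.2, 45.6, 60.2, and 49.1 CPM in Nt+/+ AL mice and at 32.2, 59.8, 97.1, 90.6, and 45.3 CPM in Nt+/+ Fast mice. These groups overlapped widely, and the fold change of 1.59 (1.02–2.48) did not pass (adjusted P = 0.133; 0.0483 without Nt+/+ Fast 1). Apoc3 in Nt-/- mice was at 50.0, 22.9, 37.8, and 50.1 CPM fed and at 60.6, 96.0, 85.5, 78.7, and 82.4 CPM fasted. That rise of 2.00-fold (1.24–3.23) passed (adjusted P = 0.033) but was lost when any of 5 mice was left out singly. The difference in the effect between genotypes was 0.33 ± 0.45 on the log2 scale (SE), which did not pass (unadjusted P = 0.470), so the calls do not show that Apoc3 responded differently in the genotypes.

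Although Apoc3 lies between Apoa1 and Apoa4, the ratio of its reads to theirs was not kept. The log2 ratio of Apoa1 to Apoc3 CPM within a mouse was 4.36 to 4.94 in Nt+/+ AL mice and 4.996 to 5.34 in Nt+/+ Fast mice, and 4.48 to 4.94 in Nt-/- AL mice and 5.21 to 5.44 in Nt-/- Fast mice. That of Apoa4 to Apoc3 was 4.02 to 4.40 and 4.64 to 5.07 in Nt+/+ mice, fed and fasted, and 4.17 to 4.57 and 5.03 to 5.32 in Nt-/- mice. In each genotype every fasted mouse thus had more Apoa1 and more Apoa4 per Apoc3 read than every fed mouse. The ratio of Apoa1 to Apoa4 overlapped between diets, at 0.02 to 0.81 and 0.09 to 0.67 in Nt+/+ mice and −0.06 to 0.76 and 0.03 to 0.41 in Nt-/- mice. These ratios were chosen after the values were seen, and they are given without a test.

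Apoe, a ligand of lipoprotein receptors that is abundant in liver and macrophages, was low in crypts and gave no call. It was at 6.43, 5.52, 4.43, 5.99, and 4.74 CPM in Nt+/+ AL mice, 8.05, 5.19, 9.16, 5.71, and 5.49 CPM in Nt+/+ Fast mice, 5.07, 5.41, 5.10, and 6.13 CPM in Nt-/- AL mice, and 6.14, 5.33, 7.34, 6.02, and 5.81 CPM in Nt-/- Fast mice. All groups overlapped. The fold change was 1.24 (0.983–1.56; adjusted P = 0.181) in Nt+/+ and 1.13 (0.885–1.45; adjusted P = 0.486) in Nt-/- mice, so a rise of up to 1.56-fold is within the interval. Of the 10 macrophage markers listed, 5 were too low to test, among them Adgre1, C1qa, C1qb, and C1qc, which never passed 0.669 CPM. The macrophage markers summed to 19.4 to 35.8 CPM in fed and 16.2 to 24.9 CPM in fasted mice. Most of the sum was Itgam, on average 21.6 of 31.0 CPM in Nt+/+ AL mice. Itgam was called lower after fasting in both genotypes (log2 fold change, −0.83 ± 0.13 and −0.54 ± 0.14, SE; adjusted P = 0.000146 and 0.00653, edgeR). The other 4 markers tested were not called, and the part of these markers in the level of Apoe was not tested.

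Apoh (beta-2-glycoprotein I), a plasma protein of the liver that binds phospholipids, was the only one of the 9 genes to fall, with the limit that reads of the overlapping Prkca cannot be told apart. Its counts were few, at 72, 28, 15, 21, and 10 reads in Nt+/+ AL mice and 13, 1, 5, 8, and 7 reads in Nt+/+ Fast mice. These equal 3.45, 1.25, 0.991, 1.07, and 0.483 CPM fed and 0.753, 0.0682, 0.257, 0.457, and 0.392 CPM fasted, which overlap. The fold change was 0.271 (0.124–0.592; adjusted P = 0.0164) and lost its call without Nt+/+ AL 1 (adjusted P = 0.0801). Apoh in Nt-/- mice was at 2.36, 1.79, 1.25, and 0.639 CPM fed and 0.908, 0.454, 0.231, 0.296, and 0.370 CPM fasted, and the fold change was 0.306 (0.137–0.686; adjusted P = 0.03). That call was lost when any of 5 mice was left out singly. Of the 8 hepatocyte markers listed, 2 were tested, and Alb and Ahsg reached at most 0.242 and 0.113 CPM in any mouse. Of the 2, Ttr was called higher after fasting in Nt+/+ mice (log2 fold change, 1.00 ± 0.26, SE; adjusted P = 0.00862, edgeR). Ttr was not called in Nt-/- mice (0.67 ± 0.27; adjusted P = 0.0736, edgeR), and Cyp2e1 was called in neither (0.41 ± 0.53 and −0.03 ± 0.52). The 8 markers summed to 2.25 to 7.35 CPM in fed and 3.68 to 8.29 CPM in fasted mice. Their part in the level of Apoh was not tested.

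In Nt+/+ mice Apoa1, Mttp, and Sar1b, 3 of the 9 genes, had every fasted mouse above every fed mouse, against 7.63% of all genes tested. In Nt-/- mice 7 of the 9 did, against 10.5% of all genes. The exceptions there were Apoe and Apoh. The fold changes of all 9 genes with their intervals are plotted for both genotypes, beside the comparison of genotypes in fasted mice.

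**Figure D2:**
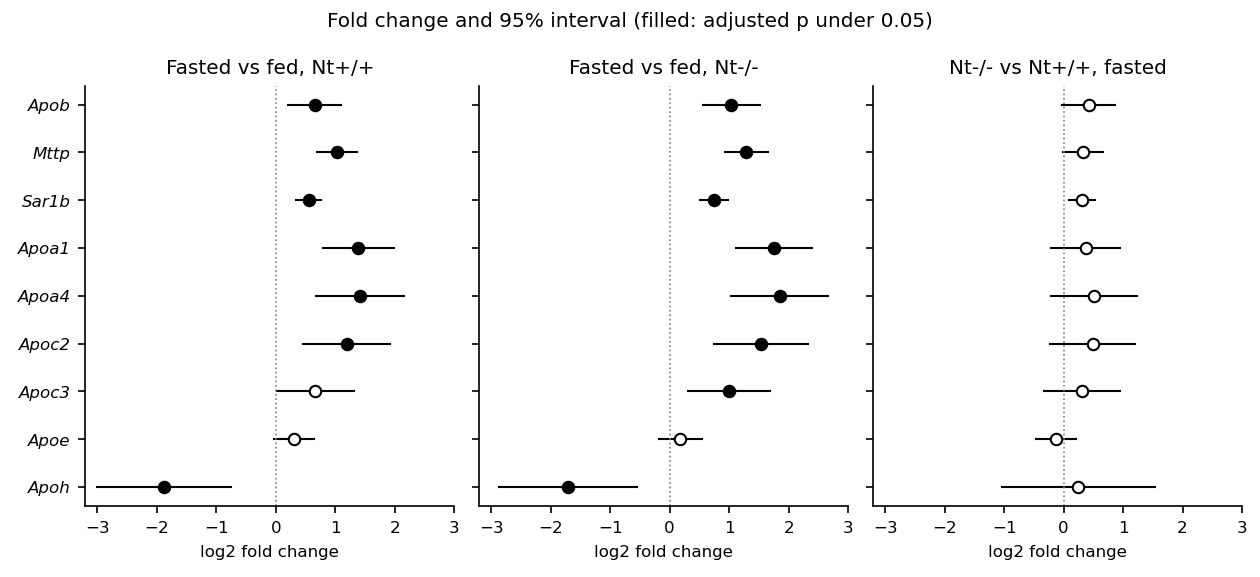
Log2 fold change (points) with its 95% interval (lines) of the 9 genes for fasting in Nt+/+ mice, fasting in Nt-/- mice, and Nt-/- against Nt+/+ in fasted mice; filled points have an adjusted P below 0.05. Fasting shows 7 filled points in Nt+/+ and 8 in Nt-/- mice, and the genotype comparison shows none, with estimates between −0.13 and 0.51.

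Loss of NT gave no call in either diet. In fed mice the log2 fold changes of Nt-/- against Nt+/+ lay between −0.02 (Apoc3) and 0.14 (Apoc2), and 0 of the 9 genes passed (edgeR), against 0.00559% of all genes. Without Nt+/+ AL 1 they lay between −0.23 (Apoc3) and 0.69 (Apoh), and 0 passed. Apoa1 was then at −0.15, Apoa4 at −0.13, and Apoc2 at −0.05, so the signs of these estimates changed without that mouse. With single mice left out, the lowest estimates of Apob and Mttp were −0.12 and −0.04, so their signs were not stable either. At an unadjusted P below 0.05 with all mice there were also 0, against 0.85% of all genes that were higher at that level. The intervals were wide: for Apoa4 the 95% interval of the fold was 0.622 to 1.80, and for Sar1b it was 0.924 to 1.27. DESeq2 called 0 of the 9 genes as well, and 3 of all 17875 genes.

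In fasted mice 8 of the 9 estimates were above 0, with a median log2 fold change of 0.33 against −0.01 over all genes. However, 0 of the 9 passed in edgeR, against 0.00559% of all genes. In DESeq2, which called 101 of 17875 genes, 0 of the 9 passed as well. At an unadjusted P below 0.05 there was 1 gene, Sar1b, against 4.67% of all genes that were higher at that level. Sar1b was 63.9 ± 7.39 CPM (SD, n = 5) in Nt+/+ Fast and 78.9 ± 10.02 CPM (n = 5) in Nt-/- Fast mice, a fold of 1.24 (1.07–1.43; adjusted P = 0.348, edgeR), and the groups overlapped. Mttp had a fold of 1.25 (0.997–1.58; adjusted P = 0.550, edgeR) and Apob a fold of 1.34 (0.984–1.82; adjusted P = 0.575, edgeR). The mice titled Nt+/+ Fast 1 and 5 held the lowest values of their group for Apob, Mttp, Sar1b, Apoa1, Apoa4, and Apoc3. Without Nt+/+ Fast 1 the log2 fold change of Apoa1 between genotypes fell from 0.37 to 0.21 and that of Apoc3 from 0.31 to 0.14. In the same comparison all 17 villus enterocyte markers had estimates above 0, with a median of 0.47 and 0 called. With the mean of those markers as a covariate, a fit added after the values were seen, 7 of the 9 genotype estimates in fasted mice were below 0. Among them were Mttp at −0.03, Apoa4 at −0.24, and Apoe at −0.10, and Apoe was at −0.13 without the covariate. Sar1b was at 0.12 and Apoh at 1.18 (0.25 without the covariate), and 0 of the 9 were called.

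The difference in the effect of fasting between genotypes, tested as an interaction, was called for 0 of the 9 genes (edgeR; background, 0%), and for 0 at an unadjusted P below 0.05, against 1.2% of all genes higher in Nt-/- at that level. DESeq2 also called 0 of the 9, and 0 of all genes. The estimates ran from −0.13 (Apoe) to 0.43 (Apoa4) on the log2 scale. Their intervals were wide, and for Apoa4 the ratio of the fold changes lay between 0.645 and 2.80. Averaged over diets, 0 of the 9 genes were called between genotypes in edgeR, against 0.0224% of all genes. DESeq2, which called 55 of 17875 genes there, also called 0 of the 9. Sar1b was the 1 gene at an unadjusted P below 0.05 (fold, 1.16; 1.04–1.29; adjusted P = 0.568, edgeR), against 3.69% of all genes that were higher at that level.

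The other genes of fat handling were taken from lists written out for this purpose, and they are given by counts. Of 9 other apolipoprotein genes, 6 were too low to test: Apoa5, Apoc1, Apoc4, Apod, Apof, and Apon stayed at or below 0.514 CPM in every mouse. Clu (clusterin or apolipoprotein J, a secreted chaperone) was the 1 of the other 3 that was called. It was at 1.57 CPM on average in Nt+/+ AL and 7.33 CPM in Nt+/+ Fast mice, a log2 fold change of 2.24 ± 0.36 (SE; adjusted P = 0.000189), and at 1.35 and 12.0 CPM in Nt-/- mice, a log2 fold change of 3.14 ± 0.39 (adjusted P = 1.29e-05).

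Among 25 partners of chylomicron assembly and export, 24 were tested, and Vamp7 was not analysed here. In Nt+/+ mice 8 were higher and 1 lower after fasting, and in Nt-/- mice 11 were higher and 1 lower, with medians of 0.19 and 0.24 (log2). Pla2g12b, which helps add lipid to the particle, rose by 0.70 ± 0.12 in Nt+/+ and 0.90 ± 0.13 in Nt-/- mice. P4hb, the protein disulfide isomerase that is the partner subunit of Mttp, rose by 0.66 ± 0.10 and 0.80 ± 0.10, and Cideb, a lipid droplet protein that aids loading, rose by 0.69 ± 0.12 and 0.71 ± 0.13. Sec23b, a subunit of the COPII coat, fell by 0.35 in Nt+/+ and by 0.44 in Nt-/- mice (SE, 0.10 and 0.10). The estimates of most partners were thus smaller than those of Apoa1, Apoa4, and Mttp, and these differences in size were not tested.

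Of 14 genes for fat uptake and triglyceride synthesis, 9 were higher and 0 lower in Nt+/+ mice, and 10 were higher and 0 lower in Nt-/- mice. Fabp1 and Fabp2, the fatty acid binding proteins of enterocytes, rose by 2.09 ± 0.23 and 1.43 ± 0.24 in Nt+/+ mice and by 2.05 ± 0.25 and 1.80 ± 0.26 in Nt-/- mice. The fatty acid transporter Cd36 rose by 1.59 ± 0.34 and 2.19 ± 0.37, and Dgat2, which makes triglyceride, by 1.26 ± 0.22 and 1.68 ± 0.24.

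Of 14 tested genes for lipoprotein receptors, lipolysis, and sterol export, 5 were higher in each genotype. Angptl4, an inhibitor of lipoprotein lipase, rose by 3.55 ± 0.40 in Nt+/+ and 3.70 ± 0.44 in Nt-/- mice, a larger estimate than that of any of the 9 genes. The sterol exporter Abca1 was called in Nt+/+ (0.85 ± 0.25) but not in Nt-/- mice (0.61 ± 0.27; adjusted P = 0.0982), and Vldlr, a lipoprotein receptor, rose by 0.68 ± 0.13 and 0.82 ± 0.14.

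Of 21 tested transcription regulators, 8 were higher and 1 lower in Nt+/+ mice, and 11 were higher and 1 lower in Nt-/- mice. Creb3l3, a membrane-bound factor of liver and gut with apolipoprotein genes among its known targets, rose by 1.74 ± 0.19 and 1.97 ± 0.21. Pparg, a nuclear receptor for fatty acids, rose by 1.15 ± 0.15 and 1.47 ± 0.16, whereas its relative Ppard fell by 1.08 and by 1.28 (SE, 0.13 and 0.13). No link between a regulator and the 9 genes was tested. All lists are plotted gene by gene.

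**Figure D3:**
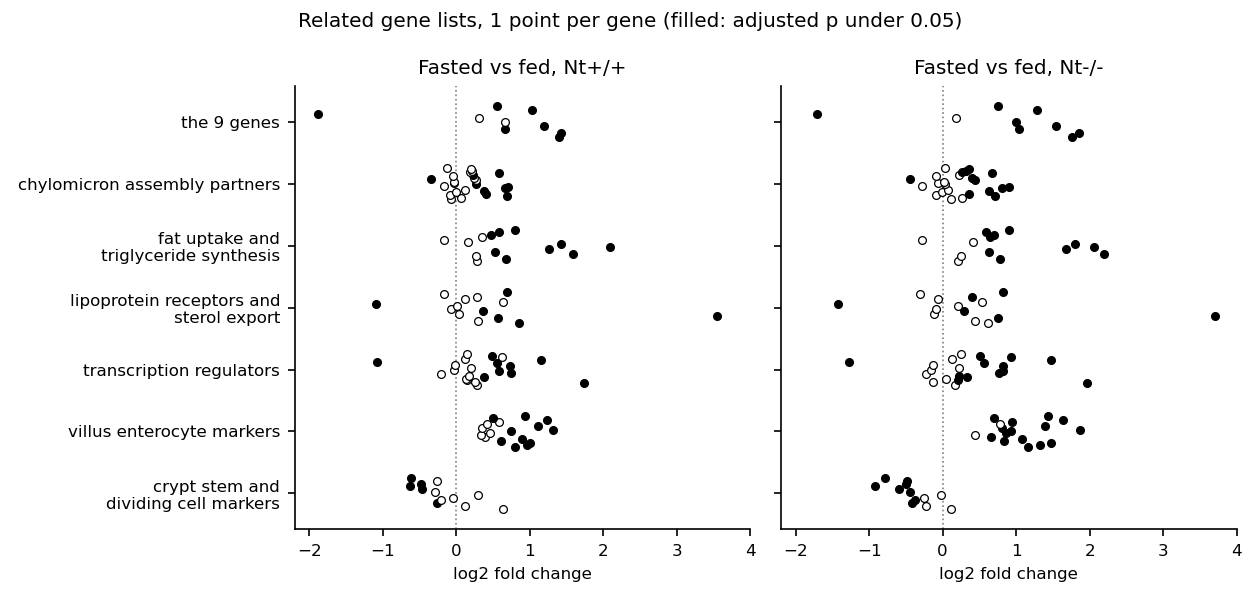
Log2 fold change for fasting in Nt+/+ (left) and Nt-/- mice (right) of the 9 genes and of lists of related genes and of markers, 1 point per gene; filled points have an adjusted P below 0.05. The 9 genes lie mostly to the right, as do the villus enterocyte markers, with medians of 0.67 and 0.74 in Nt+/+ and 1.04 and 0.94 in Nt-/- mice, whereas the crypt markers lie mostly to the left.

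The 9 genes did not move alone. Chylomicrons are made by mature enterocytes of the villus, the layer above the crypt, and markers of such cells were present in every library, at a summed level of 5170.0 to 10315 CPM in fed mice and 8180 to 19231 CPM in fasted mice. Of 17 villus enterocyte markers, 11 were higher and 0 lower after fasting in Nt+/+ mice, and 15 were higher and 0 lower in Nt-/- mice. Nt5e and Slc2a5 had the largest changes, of 1.31 ± 0.33 and 1.24 ± 0.18 in Nt+/+ and 1.87 ± 0.36 and 1.64 ± 0.19 in Nt-/- mice, whereas Krt20 passed in neither (0.34 ± 0.21 and 0.44 ± 0.22). Of 12 markers of crypt stem and dividing cells, 0 were higher and 5 lower in Nt+/+ mice, and 0 were higher and 8 lower in Nt-/- mice. Their summed level was 3087 to 4418 CPM in fed and 1863 to 3356 CPM in fasted mice. Top2a, a gene of dividing cells, fell by 0.62 and by 0.78 (SE, 0.11 and 0.11). Lgr5, the stem cell marker, had log2 fold changes of 0.29 ± 0.19 and −0.02 ± 0.20 and was not called. These markers were chosen for naming after their values were seen.

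Markers of other cell types were checked in the same way. Of 7 Paneth cell markers 0 were called in Nt+/+ and 1 in Nt-/- mice, and of 5 tuft cell markers 0 were called in either. Of 6 goblet cell markers 1 was higher and 2 lower in Nt+/+ mice, and 1 was higher and 3 lower in Nt-/- mice. Among these, chosen after their values were seen, Clca1 had log2 fold changes of −1.51 ± 0.39 and −2.22 ± 0.42 and Agr2 of −1.0 ± 0.16 and −1.59 ± 0.17. Zg16, the marker called higher in both genotypes, was at 0.93 ± 0.23 and 1.25 ± 0.25. Tff3 and Fcgbp had estimates above 0 in both genotypes and were not called. The goblet cell markers thus did not move together, and their part in the changes of the 9 genes was not tested. Of 7 lymphocyte markers 0 were called in Nt+/+ mice (median, 0.39) and 1, Gzma, was higher in Nt-/- mice (median, 0.79). Of 7 enteroendocrine cell markers 1 was higher in each genotype, and 1 was lower in Nt-/- mice. Summed levels of stromal and endothelial markers were 7.30 to 14.9 CPM, and those of 8 pancreatic acinar markers were 1.82 to 4.49 CPM, with Cela3b, Pnlip, and Amy2a5 at 0 counts in every mouse.

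Within groups, mice that had more of the villus markers also had more of 7 of the 9 genes. Each mouse was expressed as its deviation from its group mean in log2 CPM, so that diet and genotype were taken out. Over 19 mice the correlation with the mean of the 17 villus markers was 0.96 for Apoa1 (Spearman's rho, 0.89), 0.94 for Mttp (0.91), 0.94 for Apoa4 (0.90), 0.92 for Apoc3 (0.90), 0.90 for Apob (0.80), 0.86 for Apoc2 (0.79), and 0.76 for Sar1b (0.78). It was −0.13 for Apoe (−0.10) and −0.63 for Apoh (−0.52). Nt+/+ Fast 1 and Nt+/+ AL 1 were farthest out, at −0.75 and −0.65 for the villus marker mean. Without them the 7 genes kept correlations of 0.72 (Apoc2) to 0.93 (Apoa1), whereas Apoh was at −0.37 and Apoe at 0.31. The values of a mouse come from the same library, so depth, RNA quality, and cell content are shared, and no P value is given.

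**Figure D4:**
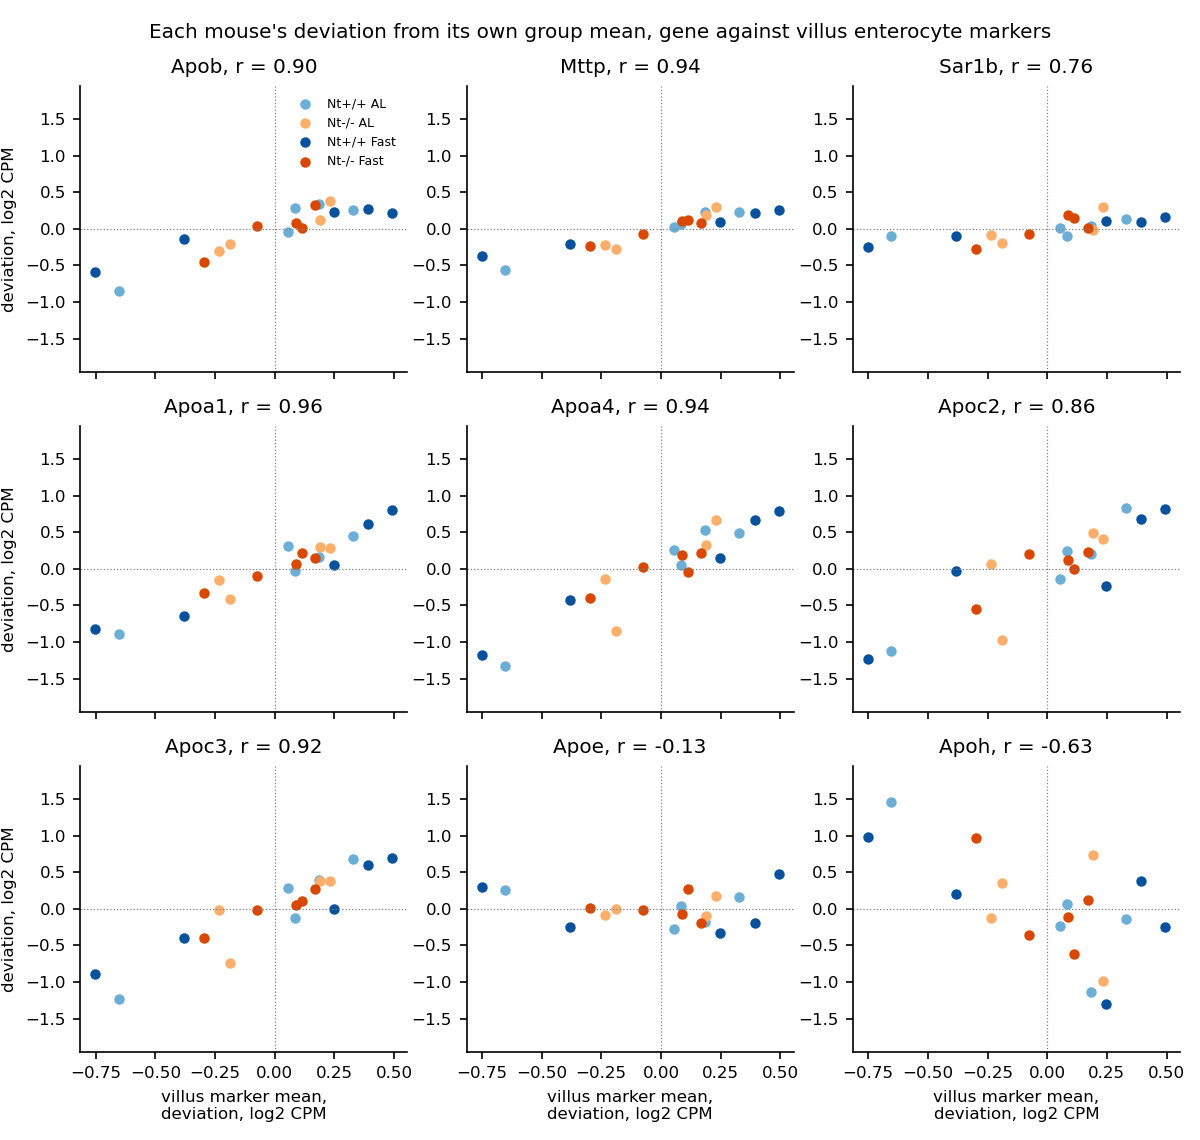
Deviation of each mouse from its own group mean (log2 CPM) of each of the 9 genes, on the vertical axis, against that of the mean of 17 villus enterocyte markers, on the horizontal axis; each point is a mouse colored by group, and r is Pearson's correlation over 19 mice. Points rise from left to right for Apob, Mttp, Sar1b, Apoa1, Apoa4, Apoc2, and Apoc3, are flat for Apoe (−0.13), and fall for Apoh (−0.63).

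The 9 genes were related to each other in the same way. All 21 pairs of the 7 genes other than Apoe and Apoh correlated within groups at 0.68 (Apoc2 and Sar1b) to 0.98 (Apoa4 and Apoc3), Apoe correlated with the other genes at −0.27 to 0.24, and Apoh correlated with those 7 genes at −0.72 to −0.48. Of all other genes tested, the 8 whose deviations were most like the mean of the 9 over the 19 mice were Gsdmd, Ggt1, Bst1, Treh, Pepd, Gpt, Plin3, and Myo7b, with correlations of 0.95 (Gsdmd) to 0.94 (Myo7b). Treh, the brush border enzyme trehalase, is 1 of the villus markers.

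When the villus marker mean of each mouse was added to the fit as a covariate, an alternative added after these levels were seen, most of the fasting estimates shrank. In Nt+/+ mice 3 genes were called, Mttp at 0.56 (log2; adjusted P = 0.000615), Apoa1 at 0.41 (adjusted P = 0.0363), and Sar1b at 0.30 (adjusted P = 0.0398). In Nt-/- mice 1 gene was called, Mttp at 0.55 (adjusted P = 0.00981). Over all 17875 genes tested in this fit, 2193 were called in Nt+/+ and 1103 in Nt-/- mice. Apob was at 0.04 in both genotypes, Apoa4 at 0.23 and 0.10, Apoc2 at 0.13 and −0.07, and Apoc3 at −0.34 and −0.54, with none of these called. Apoh lost both calls, at −0.76 (adjusted P = 0.385) and −0.12 (adjusted P = 0.939). Apoe hardly moved, at 0.36 and 0.25. Fasting itself shifted the covariate, and the markers can respond to diet within a cell, so cell content and the response of a cell cannot be told apart in this fit.

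**Figure D5:**
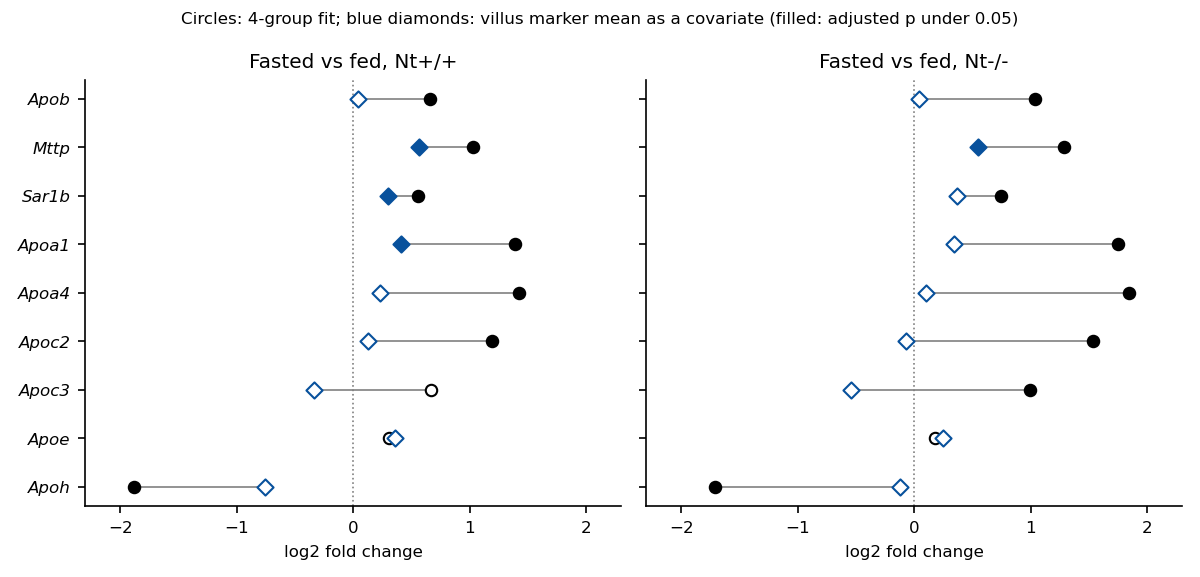
Log2 fold change for fasting of the 9 genes in Nt+/+ (left) and Nt-/- mice (right) in the fit of the 4 groups (circles) and with the villus marker mean as a covariate (blue diamonds); filled symbols have an adjusted P below 0.05, and a grey line joins the estimates of a gene. With the covariate only Mttp has a filled diamond in both genotypes, at 0.56 and 0.55.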

How the data were processed

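RNA from intestinal crypts of 19 mice was depleted of ribosomal RNA and sequenced as single-end reads. The authors trimmed reads with Trimmomatic 0.39 and quantified them with RSEM against Ensembl GRCm38 transcripts. The RSEM version and strand setting are not given in the sources used here. The deposited files hold, per gene, an expected count (RSEM divides reads shared by similar genes, so these need not be whole), TPM computed by the authors, and the deposited effective length. The FPKM column was not used.

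Groups follow the sample titles. Expected counts were rounded, filtered with filterByExpr (17875 of 55487 genes kept), normalized by TMM, and tested with edgeR 4.0.16 (quasi-likelihood, 4 groups in 1 fit, 15 residual degrees of freedom, R 4.3.3) with Benjamini-Hochberg adjustment over all genes tested. Intervals are 95% and come from the fitted fold changes and their errors. CPM values are TMM-scaled, and deviations use log2 CPM with a prior count of 2. TPM served only to order levels between genes. The test was checked on simulated data. The alternatives were DESeq2 1.42.0, other filters and scaling, sex, a replicate block, other groupings, leaving out each mouse, and a villus marker covariate added after the data were seen.

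Deviations of same-numbered mice correlated above 0.1 in every pair for fasting in Nt+/+ mice (5 pairs, lowest correlation 0.165). The same held for genotype in fasted mice (5 pairs, lowest 0.124). For fasting in Nt-/- mice and for genotype in fed mice 2 of 4 pairs each passed 0.1, and 19 of 27 pairs did in all. The mean correlation was 0.184 in these 27 pairs and −0.046 in 108 pairs of unlike number. The labels do not say what a number marks, so the fit has no block.

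The 9 genes and all lists were chosen with earlier results of these data known. Within each list of pathway genes, the called genes with the largest changes were named, at most 4 per comparison and 2 in each direction where both occurred. A gene that this rule would name is not reported here. Promoter sequences are from RefSeq (GRCm38.p6).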

Additional observations from a re-analysis of the deposited data

Results flagged for a closer look

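Apoh in the fed wild-type mouse Nt+/+ AL 1 stood apart from its group, at 3.45 CPM against 0.483 to 1.25 CPM in the other 4 mice (gap over range, 0.743). The level of each of the 9 genes was checked in each of 4 groups, 36 sets of mice in all, and 1 was flagged, whereas chance alone flags about 1 in 20. The same mouse had the lowest Apob, Apoa1, Apoa4, Apoc2, and Apoc3 of its group, and its villus marker mean lay 0.65 below the group mean (log2). Without it the log2 fold change of Apoh in Nt+/+ mice went from −1.88 to −1.27 (adjusted P = 0.0801, edgeR). The part of the villus marker level in this value was not tested.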

How the results depend on the processing

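Under the alternatives planned for the purpose, 6 to 7 of the 9 genes were called for fasting in Nt+/+ mice and 7 to 8 in Nt-/- mice, and 0 in each comparison of genotypes. Over all genes, fasting calls were fewest without a filter on low counts, at 3077 (Nt+/+) and 3670 (Nt-/-) of 34546 genes. They were most with the replicate block from file names, at 5484 and 5672 of 17875 genes. The calls lost were Apob in Nt+/+ mice when only the groups compared were fitted (adjusted P = 0.0582), Apoc3 in Nt-/- mice when the mouse with disagreeing labels was grouped as Nt-/- (0.0587), and Apoh, which had too few reads for a minimum of 10 counts in every mouse. With 1 mouse left out at a time, 5 to 8 of the 9 genes were called in Nt+/+ and 6 to 8 in Nt-/- mice. The calls over all genes in those fits are not reported here, so these counts have no background beside them. In Nt+/+ mice the count of 5 occurred without Nt+/+ AL 1, Nt+/+ Fast 3, or Nt+/+ Fast 4, and that of 8 without Nt+/+ Fast 1. Apob and Apoc2 in Nt+/+, Apoc3 in Nt-/-, and Apoh in both are the calls that rest on single mice. With the villus marker mean as a covariate, the genes called were 3 in Nt+/+ and 1 in Nt-/- mice, and in Nt-/- mice the estimates of Apoc2 (−0.072) and Apoc3 (−0.54) turned below 0. Genes called for fasting over all genes went from 3862 to 2193 in Nt+/+ and from 4499 to 1103 in Nt-/- mice with that covariate. DESeq2 called 3 genes in place of 1 between genotypes in fed mice, 101 in place of 1 in fasted mice, and 55 in place of 4 averaged over diets, with 0 of the 9 genes among them. Averaged over diets, the 4 genes became 10 with the replicate block, 15 with the block from file names, and 1 with sex as a covariate or with the mouse of disagreeing labels grouped as Nt-/-. The 1 gene called between genotypes in each diet became 0 with that grouping and with a minimum of 10 counts in every mouse. The cause of these shifts was not tested.

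With the replicate block, 7 of the 9 genes were called in Nt+/+ and 8 in Nt-/- mice, as without it, and the block changed no other call of the 9 genes, whether the numbers came from titles or from file names. Over all genes the block by title gave 5006 and 5657 calls for fasting. By file-name numbers, deviations correlated above 0.1 in 24 of 27 pairs.

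The few reads of Apoh, 1 to 17 in fasted mice, limit its precision. The P values of edgeR weigh each fold change against the spread between these mice, as estimated in the fit of the 4 groups.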
